A study of Mus musculus with 7 samples.

Results

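The vascular endothelial growth factor (VEGF) and placental growth factor (PlGF) system was followed across the injured mouse retina through 9 genes chosen by name: the ligand genes Vegfa, Vegfb, Vegfc and Pgf, the receptor genes Flt1, Kdr and Flt4, and the co-receptor genes Nrp1 and Nrp2. All 9 were present among the 25655 genes of the count table, and all 9 passed the filter on low counts, as did 14750 genes in all. The tissue was whole retina of wildtype C57BL/6 mice, collected 2 days after the optic nerve had been crushed, which injures the axons of retinal ganglion cells. The labels used here give no age. One group had received AAV2, an adeno-associated viral vector, that drives overexpression of Tppp3, and the other a control AAV2, which the treatment protocol names as a CMV control. Tppp3 encodes a tubulin polymerization-promoting protein, and the submitters asked how its overexpression acts on axon regrowth and ganglion cell survival. Both groups carried the crush and a vector, and no uninjured or untreated retina was analysed here. Each group was read from 3 libraries. The labels do not say whether each library came from another animal, so the p-values measure the spread between these libraries only.

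VEGF-A is the main growth and permeability factor of blood vessels, and in the retina Müller glia, astrocytes and pigment epithelium are known sources of it. Its signalling receptor is the kinase encoded by Kdr, while the product of Flt1 binds it tightly, signals weakly and, in a soluble form, traps it. VEGF-B and PlGF bind the Flt1 receptor and not the Kdr receptor, VEGF-C acts mainly through the Flt4 receptor of lymphatic vessels, and the neuropilins encoded by Nrp1 and Nrp2 assist these receptors and also bind class 3 semaphorins. Kdr is a classical endothelial gene but has also been described in retinal neurons and Müller glia.

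Promoter sequences of Vegfa, Flt1 and Kdr are shown because the measurements below turn on this ligand and its 2 receptors. Each is the stretch of 250 bases before the most upstream RefSeq start, on the gene's own strand, in RefSeq's build GRCm38.p6. The count table was made on a later build, and no measurement here uses these coordinates. They lie at chr17:46032378-46032627 (minus strand) for Vegfa, chr5:147726012-147726261 (minus strand) for Flt1 and chr5:75978456-75978705 (minus strand) for Kdr. In these windows no match overlaps another. Capitals mark matches, on either strand, to the TATA box (TATAAA), the cAMP response element (TGACGTCA) and the GC box (GGGCGG). The letters ACGTG, a form of the core of the hypoxia-inducible factor site, were searched in the same way.
Vegfa: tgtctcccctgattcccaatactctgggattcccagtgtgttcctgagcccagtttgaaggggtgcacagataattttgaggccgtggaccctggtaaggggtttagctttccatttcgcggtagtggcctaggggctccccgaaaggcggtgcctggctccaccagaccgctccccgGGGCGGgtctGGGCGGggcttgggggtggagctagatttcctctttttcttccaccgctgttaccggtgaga
Flt1: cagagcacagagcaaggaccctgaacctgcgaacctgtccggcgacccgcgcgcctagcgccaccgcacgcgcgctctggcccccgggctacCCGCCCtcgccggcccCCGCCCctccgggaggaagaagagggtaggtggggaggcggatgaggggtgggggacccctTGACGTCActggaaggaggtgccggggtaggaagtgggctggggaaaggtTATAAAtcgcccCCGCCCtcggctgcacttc
Kdr: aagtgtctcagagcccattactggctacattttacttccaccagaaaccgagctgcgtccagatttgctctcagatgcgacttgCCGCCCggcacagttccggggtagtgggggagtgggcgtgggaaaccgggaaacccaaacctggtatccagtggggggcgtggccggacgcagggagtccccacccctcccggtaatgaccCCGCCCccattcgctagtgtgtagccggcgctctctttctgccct
The Flt1 window holds a TATA box that begins 31 bases before the start and a cAMP response element that begins 81 bases before it. No other member's window holds either motif, while 13% and 1.6% of 27025 promoter windows of the same length do. A GC box lies in the windows of all 9 members, beginning 72 and 62 bases before the start in Vegfa and 166 and 45 bases before it in Kdr, against 33% of all windows. The members' windows are richer in G and C than most, with 59.2% in Vegfa, 70.4% in Flt1 and 61.6% in Kdr beside a median of 52% over all windows. The ACGTG form of the hypoxia core lies in 0 of the 9 member windows and in 16.5% of all windows. Other forms of this core, such as GCGTG, were not searched, so their absence is not claimed. These matches describe the letters of the windows only.

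The libraries held between 10961443 and 21843892 counts, the deepest control having 16218074 and the shallowest Tppp3 library 19961359. The 9 genes together took 0.0540% to 0.0707% of each library. Tppp3 itself lay at 18.7, 22.2 and 28.02 CPM (a gene's count over the TMM-scaled size of its library, set to a common depth) in control replicates 1, 2 and 3 and at 53.7, 36.5 and 41.8 CPM in Tppp3 replicates 1, 2 and 3, with no overlap. A higher level without overlap was found in 6.92% of all genes tested. The log2 fold change of Tppp3 was 0.94. In edgeR, 0 genes were higher at an adjusted p under 0.05, so Tppp3 did not pass that limit. Sag, which encodes the arrestin of rods, averaged 4752 CPM in the control and 4034 CPM in the Tppp3 AAV2 libraries, a level that goes with the retinal label. Transcripts of 4 Y-linked genes summed to 235 CPM in control replicate 1 and 224 CPM in Tppp3 replicate 2, and to at most 2.13 CPM in the other 4 libraries. Each group thus held 1 library with Y-linked transcripts and 2 without.

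Set per length of exon, so that genes can be compared, Vegfa was the most abundant member and Vegfc the least. Vegfa averaged 37.4 ± 3.31 CPM per kilobase (SD over 6 libraries), Kdr 26.5 ± 6.19, Vegfb 12.5 ± 1.08 and Flt1 8.53 ± 0.632. Nrp2 followed at 2.54 ± 0.188 CPM per kilobase, Nrp1 at 1.10 ± 0.131, Flt4 at 0.767 ± 0.0743, Pgf at 0.641 ± 0.239 and Vegfc at 0.590 ± 0.0863. Vegfa lay above Kdr in 6 of 6 libraries although their ranges over libraries overlapped. From Kdr down to Flt4 no range overlapped that of its neighbour, whereas Flt4, Pgf and Vegfc could not be ordered: Flt4 lay above Pgf in 4 of 6 libraries and Pgf above Vegfc in 3 of 6. Kdr and Flt1 lay above the typical level of genes that mark endothelium. The median of 14 endothelial markers was 1.34 CPM per kilobase, which puts Kdr 19.8 times and Flt1 6.38 times higher, and the most abundant of the markers, the tight junction gene Cldn5, averaged 8.03 ± 1.44, with a range that overlapped that of Flt1. Exon lengths came from GENCODE models of an earlier build than that of the counts.

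**Figure D1:**
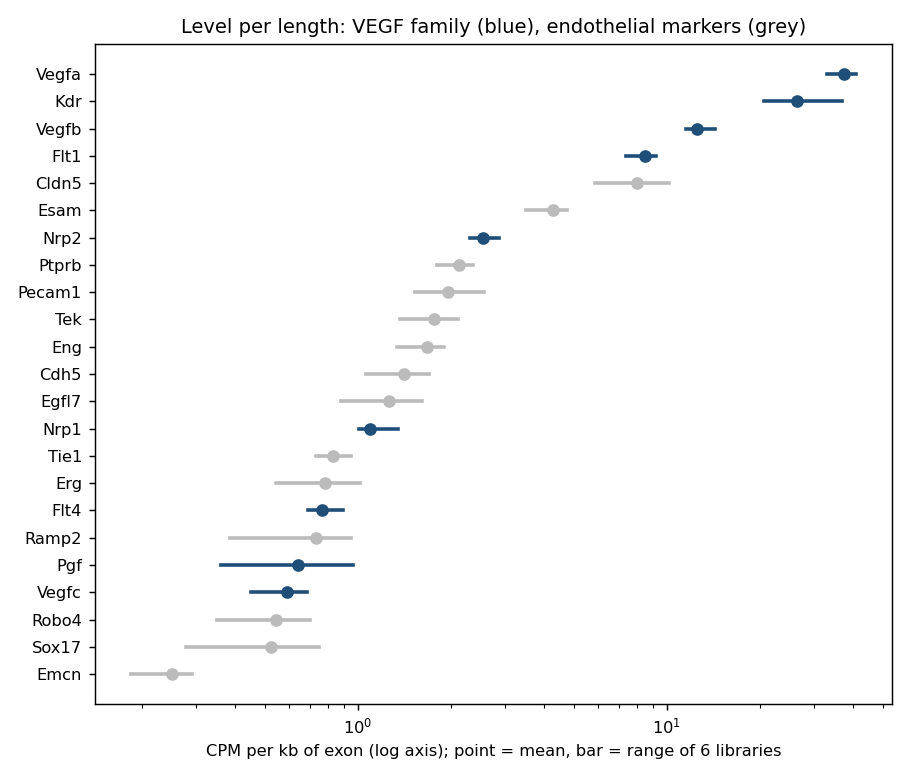
Level of each member (blue) and of 14 endothelial markers (grey) in CPM per kilobase of exon on a log axis, with the mean as a point and the range of the 6 libraries as a bar. Vegfa, Kdr, Vegfb and Flt1 have the highest means, with Kdr at 26.5 and Flt1 at 8.53, and Pgf and Vegfc lie near the low end.

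None of the 9 members passed the threshold between Tppp3 AAV2 and control AAV2. In edgeR's quasi-likelihood test with Benjamini-Hochberg adjustment over all genes, 0 of 9 had an adjusted p under 0.05, where 0.0136% of all genes tested did. At an unadjusted p under 0.05 there was 1 member, Vegfa, which was higher, and 0 were lower, against 7.23% of all genes, 3.67% higher and 3.55% lower. Groups without overlap were found in the same 1 member and in 13.9% of all genes, 6.92% higher and 7.02% lower. The Wald test of DESeq2 and limma's voom with quality weights also placed 0 members past the threshold. The median log2 fold change was 0.027 over the 9 members and 0.0030 over all genes tested. The fold change was positive in 8 members and in 50.9% of all genes.

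**Figure D2:**
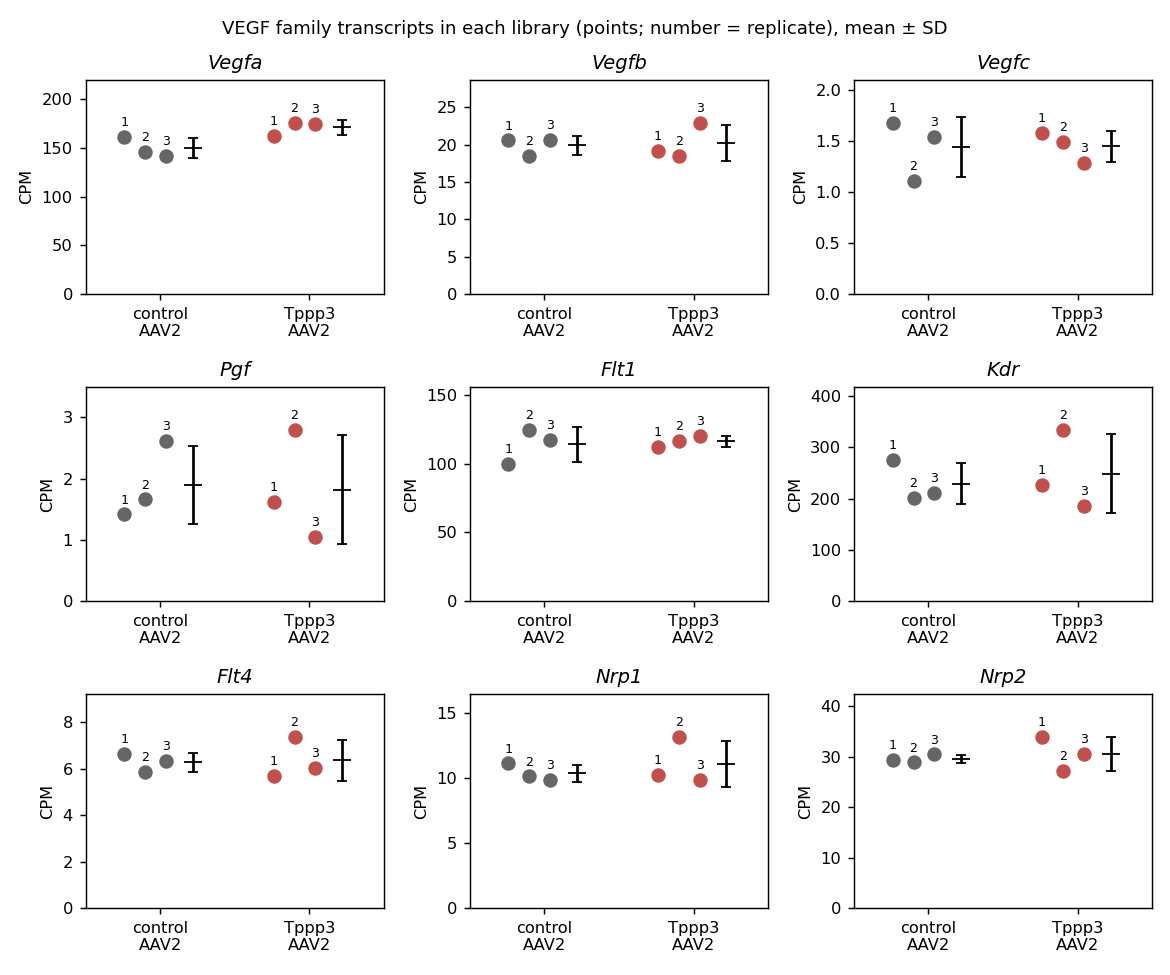
CPM of each member in the 3 control AAV2 libraries (grey) and the 3 Tppp3 AAV2 libraries (red), with the replicate number above each point and the mean ± SD beside each group. Vegfa is the single member whose groups do not overlap, and Kdr is spread widely in both groups, from 186 to 334 CPM.

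Vegfa stood slightly higher with Tppp3 AAV2. Control replicates 1, 2 and 3 held 160.9, 146.2 and 141.5 CPM, and Tppp3 replicates 1, 2 and 3 held 162.5, 175.9 and 174.6 CPM. The groups did not overlap, but the highest control library and the lowest Tppp3 library were nearly level. The group means were 149.5 ± 10.1 and 171.01 ± 7.42 CPM (SD, n = 3 per group), a 1.14-fold difference. The log2 fold change was 0.19 ± 0.059 (SE), with a 95% confidence interval of 0.064 to 0.32 before any adjustment. Its edgeR p was 0.00717 unadjusted and 0.639 adjusted, at rank 154 of the genes tested. Over the 17 alternative settings the adjusted p ran from 0.127 to 0.907. A two-sided exact permutation test over the libraries gave p = 0.1, the smallest value that 3 against 3 allow. Pigment epithelium, a known source of Vegfa that can adhere to a dissected retina, was unevenly present. Its 11 markers, each with counts in at least 1 library of both groups, summed to 214.5, 46.7 and 47.7 CPM in control replicates 1, 2 and 3 and to 229.1, 59.5 and 217.1 in Tppp3 replicates 1, 2 and 3. They were thus high in 1 control and 2 Tppp3 libraries. Among the controls Vegfa was highest in replicate 1, where the markers were high, and among the Tppp3 libraries it was highest in replicate 2, where they were low. The part of pigment epithelium in the level of Vegfa was not tested beyond the covariate. With the level of these markers as a covariate the log2 fold change of Vegfa was 0.16. There the unadjusted edgeR p was 0.0306 and the adjusted p 0.608. With the endothelial level as a covariate the log2 fold change was 0.12 ± 0.094 (SE). There the unadjusted edgeR p was 0.228 and the adjusted p 0.810. The endothelial level, as mean log2 CPM, was 2.42 to 2.64 in the controls and 2.27 to 2.41 with Tppp3 AAV2. As these ranges do not overlap, that fit cannot separate endothelial level from vector, and no conclusion is drawn from it. Read counts do not separate the splice forms of Vegfa, which differ in how far the protein spreads.

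Vegfb, Vegfc and Pgf did not differ beyond the spread between libraries. Vegfb, which has been linked to cell survival more than to vessel growth, held 20.6, 18.5 and 20.7 CPM in control replicates 1, 2 and 3 and 19.2, 18.5 and 23.0 in Tppp3 replicates 1, 2 and 3. The groups overlapped, and the log2 fold change was 0.022 with a 95% interval of -0.21 to 0.26. Vegfc and Pgf rested on few counts. Vegfc had 17 to 33 counts per library, with group means of 1.44 ± 0.298 and 1.45 ± 0.151 CPM (SD, n = 3). Pgf had 16 to 62 counts per library, with group means of 1.90 ± 0.638 and 1.82 ± 0.892 CPM, and it varied 2.68-fold between the lowest and the highest library. The 95% intervals of their fold changes, before adjustment, ran from 0.622 to 1.66 for Vegfc and from 0.523 to 1.79 for Pgf. Changes in either direction within these limits are compatible with these 3 libraries per group.

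**Figure D3:**
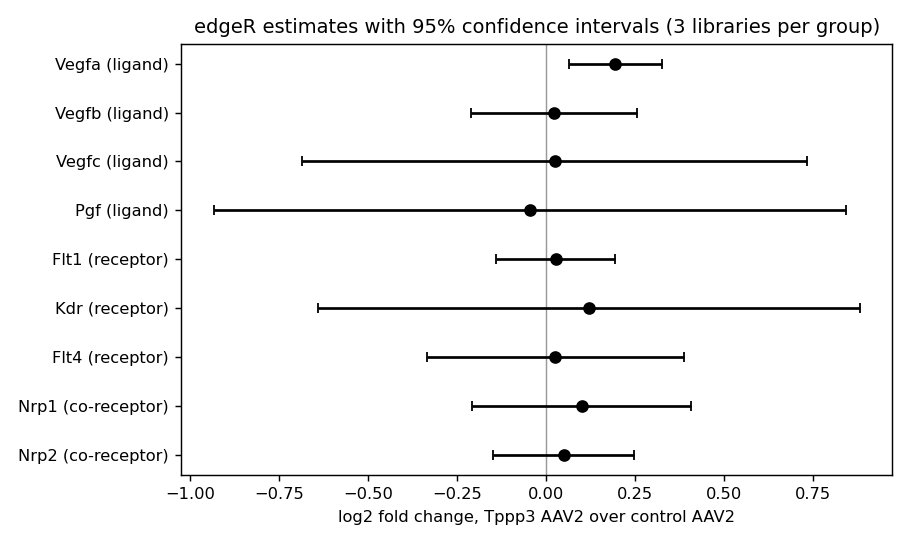
Log2 fold change of each member, Tppp3 AAV2 over control AAV2, with its 95% confidence interval before adjustment (edgeR, 3 libraries per group). The interval of Vegfa, 0.064 to 0.32, lies above 0, that of Flt1 is narrow around 0, and those of Kdr, Vegfc and Pgf are wide.

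Flt1 stood at nearly the same mean with both vectors. It held 99.98, 124.6 and 117.5 CPM in control replicates 1, 2 and 3 and 112.1, 116.4 and 120.4 in Tppp3 replicates 1, 2 and 3. All 3 Tppp3 libraries lay within the range of the controls. The group means were 114.04 ± 12.7 and 116.3 ± 4.13 CPM (SD, n = 3 per group), and the fold change of 1.02 had a 95% interval of 0.907 to 1.14. The adjusted p was 0.963 in edgeR. Without control replicate 1, the lowest of the 6, the log2 fold change was -0.062. Transcripts of the membrane receptor and of its soluble form were not told apart by the counts.

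Kdr varied widely between libraries of the same group. It held 275.7, 201.4 and 210.5 CPM in control replicates 1, 2 and 3 and 226.04, 334.2 and 186.1 in Tppp3 replicates 1, 2 and 3. Control replicate 1 and Tppp3 replicate 2 stood above the rest, and the groups overlapped. The group means were 229.2 ± 40.6 and 248.8 ± 76.6 CPM (SD, n = 3 per group). For Kdr the log2 fold change of 0.12 ± 0.28 (SE) had an adjusted p of 0.956 in edgeR. The SD of its log2 CPM within groups was 0.35, beside a median of 0.064 over the 1645 tested genes within 2-fold of its mean CPM, where it ranked at the 98.8th percentile. Flt1, Vegfa, Nrp1 and Flt4 stood at percentiles 87.8, 67.0, 58.8 and 27.5 of the genes of their own levels. The values of Kdr rested on 2329 to 7409 counts per library. The fold change interval of Kdr ran from 0.641 to 1.84, and without Tppp3 replicate 2 the log2 fold change was -0.15.

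The libraries in which Kdr was high were those with Y-linked transcripts. In the pair with Y-linked transcripts Kdr held 275.7 CPM with the control vector and 334.2 with Tppp3 AAV2. In the other 4 libraries it held 201.4 to 210.5 CPM with the control vector and 186.1 to 226.04 with Tppp3 AAV2. With the 4 libraries lacking Y-linked transcripts alone, a setting added after the data were seen, the log2 fold change of Kdr was 0.0014, and with the presence of Y-linked transcripts as a covariate, likewise added, it was 0.094 (edgeR adjusted p = 0.997 and 0.876). Nrp1 and Flt4 were also highest in the same 2 libraries. Nrp1 held 11.1 and 13.2 CPM there and 9.85 to 10.3 in the other 4, and Flt4 held 6.63 and 7.35 there and 5.69 to 6.33 in the other 4. Both libraries with Y-linked transcripts lay above the other 4 in 3 of 9 members and in 5.73% of all genes tested. Marker levels differed between these 2 libraries. Tppp3 replicate 2 had the highest mean log2 CPM of Müller glia and astrocyte markers, 6.76 against 6.50 to 6.58 in the others. It also had the highest mean of microglia markers, 4.00 against 3.02 to 3.87, and the lowest of rod markers, 12.3. Control replicate 1 stood at 6.53 for the glial markers and at 3.14 for microglia markers, both within the range of the other libraries. It had the highest mean of rod markers, 12.6. By summed CPM the glial markers were nearly level in Tppp3 replicates 2 and 3, at 5660 and 5640, with control replicate 1 at 5158. The part of these cell types in the level of Kdr was not tested, and with 1 such library per group sex and other properties of these 2 libraries cannot be told apart.

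**Figure D4:**
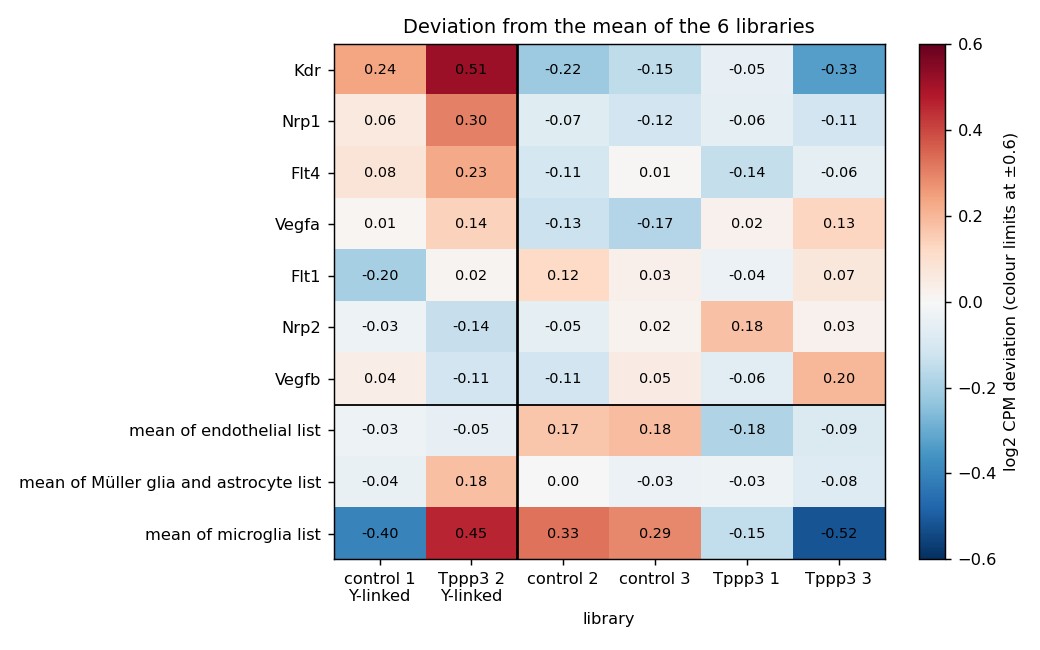
Deviation of log2 CPM from the mean of the 6 libraries for 7 members and for the means of 3 marker lists, with the 2 libraries that hold Y-linked transcripts on the left. Kdr, Nrp1 and Flt4 are highest in those 2 libraries, at 0.24 and 0.51 for Kdr, while Flt1 and the endothelial list do not follow that order.

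The lymphatic-type receptor and the co-receptors showed no difference beyond their spread between the vectors. Flt4 averaged 6.27 ± 0.399 and 6.36 ± 0.878 CPM in control and Tppp3 AAV2 (SD, n = 3 per group), with an edgeR adjusted p of 0.986. Nrp1, the neuropilin that partners the Kdr receptor, averaged 10.4 ± 0.675 and 11.1 ± 1.80 CPM. Its log2 fold change was 0.099, at an adjusted p of 0.915. Nrp2, the partner of the Flt4 receptor, held 29.3, 28.9 and 30.5 CPM in control replicates 1, 2 and 3 and 33.9, 27.2 and 30.6 in Tppp3 replicates 1, 2 and 3. The groups overlapped, and the log2 fold change was 0.048 with a 95% interval of -0.15 to 0.24. Of markers of lymphatic vessels, which the retina lacks, Ccl21a had 0 counts in all 6 libraries, while Lyve1, also a macrophage gene, had group means of 11.5 and 12.1 CPM (control first). The other listed markers were higher. Pdpn had group means of 73.0 and 80.5 CPM, and Prox1, also a gene of retinal neurons and Müller glia, 237.7 and 254.3 CPM.

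The balance of Flt1 to Kdr, the trapping and the signalling receptor, followed Kdr. Flt1 made up 26.6%, 38.2% and 35.8% of the CPM of both genes in control replicates 1, 2 and 3, and 33.2%, 25.8% and 39.3% in Tppp3 replicates 1, 2 and 3. The share was lowest in the 2 libraries with Y-linked transcripts. The log2 ratio differed by -0.055 between the groups (two-sided exact permutation p = 0.9). Its sign changed without control replicate 2 (0.098), control replicate 3 (0.024) or Tppp3 replicate 2 (0.18).

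Endothelial markers mostly had negative log2 fold changes, beside 0.027 for Flt1 and 0.12 for Kdr. Of 14 endothelial markers, 12 were negative, with a median of -0.25 beside 0.0030 over all genes, and 0 passed the threshold in edgeR, DESeq2 or voom. At an unadjusted edgeR p under 0.05, 2 of the 14 were lower, against 3.55% of all genes tested. The receptor phosphatase gene Ptprb stood at -0.25, the secreted vascular factor Egfl7 at -0.52 and the adhesion gene Pecam1 at -0.30 (adjusted p = 0.648, 0.661 and 0.717). The summed level of the 14 markers was 105.4, 112.2 and 121.6 CPM in control replicates 1, 2 and 3 and 93.1, 100.9 and 100.2 in Tppp3 replicates 1, 2 and 3, with no overlap. Among single genes tested, 7.02% were lower without overlap. With 0 markers past the threshold, a lower endothelial level was not established. In whole retina, the number of endothelial cells, their RNA per cell and the share of other tissue cannot be told apart. Relative to the mean log2 CPM of these markers, Flt1 stood at 4.22, 4.34 and 4.24 in control replicates 1, 2 and 3 and at 4.54, 4.46 and 4.55 in Tppp3 replicates 1, 2 and 3. The groups did not overlap and differed by 0.25 (two-sided exact permutation p = 0.1, the smallest that 3 against 3 allow). A higher value without overlap on this relative scale was found in 31% of all genes tested, and the markers' own mean log2 CPM did not overlap, at 2.42 to 2.64 in the controls and 2.27 to 2.41 with Tppp3 AAV2. With that mean as a covariate, the log2 fold change of Flt1 was 0.27 (edgeR adjusted p = 0.602). Kdr differed by 0.30 on the same scale with overlapping groups (exact permutation p = 0.4). Mural cell markers, those of pericytes and smooth muscle, had 8 negative values among 11, a median of -0.11 and 0 past the threshold.

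**Figure D5:**
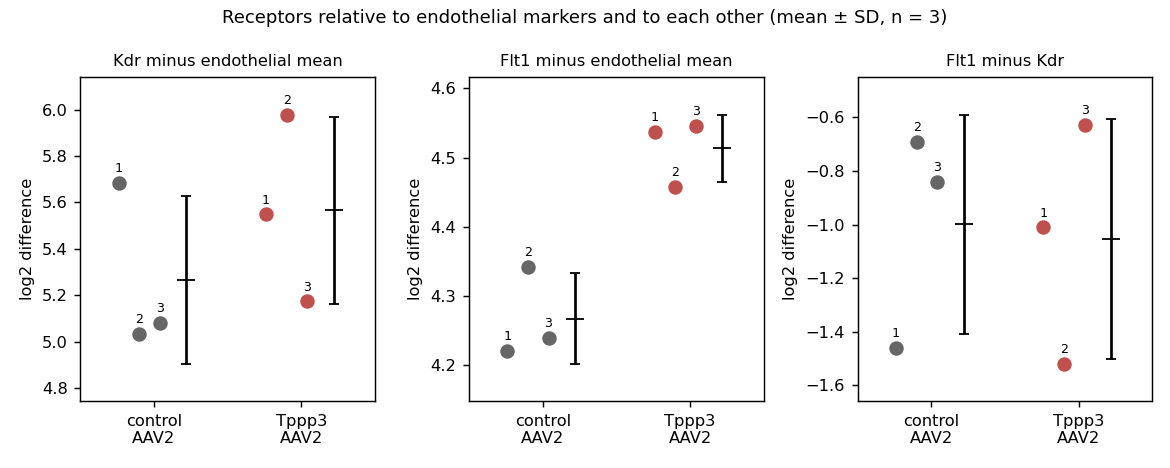
Log2 CPM of Kdr and of Flt1 less the mean log2 CPM of 14 endothelial markers, and of Flt1 less Kdr, in each library, with replicate numbers and the mean ± SD of 3 libraries per group. The groups do not overlap for Flt1 against the markers, a difference of 0.25, and overlap in the other 2 panels.

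Genes that act around the receptors were read from the same test, and 0 of those in the lists below passed the threshold in edgeR, DESeq2 or voom. At an unadjusted edgeR p under 0.05, 3 genes in the first 3 lists were higher and 0 lower, against 3.67% and 3.55% of all genes. Receptor signalling gave 1 of 29 tested genes, Pik3r1, and the HIF pathway 2 of 18, Slc2a1 and P4ha1. Genes that VEGF induces or that mark tip cells gave 0 of 11. Among 29 tested genes of signalling below the VEGF receptors, 21 had a positive log2 fold change, with a median of 0.052. The phosphoinositide 3-kinase subunit gene Pik3r1 stood at 0.14 (adjusted p = 0.673), and the GTPase gene Cdc42 and the adaptor gene Grb2 at 0.13 and 0.14. Genes that VEGF induces or that mark sprouting tip cells were positive in 5 of 11, with a median of -0.029. The tip cell peptide gene Apln averaged 0.738 and 1.23 CPM in control and Tppp3 AAV2, Igfbp3 averaged 2.94 and 3.78, and the VEGF-induced transcription factor gene Egr3 averaged 1.76 and 1.20. The HIF pathway, through which low oxygen raises Vegfa, was positive in 14 of 18, with a median of 0.060. The glucose transporter gene Slc2a1 held 234.5, 227.2 and 236.1 CPM in control replicates 1, 2 and 3 and 248.4, 257.2 and 298.8 in Tppp3 replicates 1, 2 and 3 (log2 fold change 0.21, adjusted p = 0.648). The collagen-modifying enzyme gene P4ha1 stood at 0.23 and the histone demethylase gene Kdm3a at 0.15.

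The smallest p-values among these lists were those of Plxna4 and Pdgfb, neither past the threshold. The PDGF list holds ligand genes, whose proteins share the cystine-knot fold of the VEGFs, and receptor genes. Of its 6 tested genes 4 were positive: the ligand genes Pdgfa and Pdgfd and the receptor genes Pdgfra and Pdgfrb. Pdgfb, by which endothelium recruits pericytes, held 7.43, 6.08 and 7.41 CPM in control replicates 1, 2 and 3 and 4.52, 4.92 and 4.42 in Tppp3 replicates 1, 2 and 3. Each Tppp3 library lay below each control library, as was found in 7.02% of all genes tested. Its log2 fold change of -0.59 ± 0.17 (SE) had an adjusted p of 0.639 in edgeR. Pdgfa and Pdgfrb stood at 0.25 and 0.12. Among class 3 semaphorins, the other neuropilin ligands, and their plexin receptors, 9 of 12 were positive, with a median of 0.087. Plxna4 held 24.3, 26.5 and 24.5 CPM in control replicates 1, 2 and 3 and 32.9, 30.9 and 29.3 in Tppp3 replicates 1, 2 and 3 (log2 fold change 0.31, edgeR adjusted p = 0.639). Its groups did not overlap either, and a higher level without overlap was found in 6.92% of all genes tested. Pdgfb and Plxna4 were named for their small p, so the separation of their groups is no further evidence. Sema3g stood at 0.41 and Plxna2 at 0.092. Of the angiopoietin and Tie genes, 2 of 5 were positive. Beside Ptprb, which is also on this list, Tie1 stood at -0.13 and Angpt1 at -0.061.

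The genes whose pattern over the 6 libraries was most like that of a member were found among 11607 genes with a mean of at least 5 CPM. For Vegfa they were Gpd1l, Cep162 and Ier3ip1, with Pearson r of 0.993, 0.989 and 0.985 on log2 CPM. For Kdr they were Cav2, which encodes a caveolar protein, Fam117a and Gpr85, at 0.989, 0.986 and 0.972. For Flt1 they were Ogfod3, Cckbr and Tyw1, at 0.991, 0.989 and 0.988. With only 6 libraries such values are common: 118, 60 and 82 genes had r over 0.9 with Vegfa, Kdr and Flt1. They are given as a description, and every value rests on the same 6 libraries, which differ in depth and in marker levels together.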

How the data were processed

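Poly(A)-enriched RNA of whole retina was sequenced as paired reads from libraries whose kit keeps no strand information, per the labels' protocols. The deposited table gives total counts for each gene symbol, per the file headers, and its values are whole numbers. Build GRCm39 (mm39) is named in the submitters' processing notes; the aligner, counter, annotation and filters were not given in the sources used here. Spike-in RNA was added, per the labels' protocols, and none was used here. In GENCODE models, exons of 8 members overlap no other gene, and 0.818% of Nrp1's exon length overlaps a microRNA gene.

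A column was used where its name matched a sample title. This gave 3 libraries per group, where the treatment protocol counts 4 Tppp3 and 3 control retinas. The labels name 4 control and 3 Tppp3 samples, while the table's columns are named for 3 control and 4 Tppp3 libraries. The fourth control was not analysed here, and 1 column, named as a further Tppp3 library and matching no listed sample, was not used. Fits planned on all labelled samples were made on 6 libraries. Same-group libraries differed well beyond sampling noise.

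Genes were filtered by edgeR's filterByExpr, scaled by TMM and tested on group alone with robust quasi-likelihood F tests, Benjamini-Hochberg adjustment over 14750 genes and a threshold of 0.05. CPM are TMM-scaled; log2 CPM used a prior count of 2. Standard errors come from the fold change and F statistic. R 4.3.3, edgeR 4.0.16, limma 3.58.1, DESeq2 1.42.0, Python 3.11.15 and matplotlib 3.10.9 were used, and the fit was tested on simulated data. Alternatives were other normalizations, tests and filters, leaving out each library, a replicate block, covariates, thinning and the libraries without Y-linked counts.

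Members and lists were chosen with earlier results of these data known. Named genes are all members, the 3 of smallest p per list and the 3 genes most like Vegfa, Kdr and Flt1. Sag, Cldn5, Lyve1, Pdpn, Prox1 and Ccl21a were named as markers after their values were seen. All promoters came from RefSeq, matched by symbol for 9 of 9 members.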

Additional observations from a re-analysis of the deposited data

How the results depend on the processing

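No member passed the threshold under any of the 17 alternatives (0 in each). The log2 fold change of Vegfa ran from 0.12 to 0.25; as its groups do not overlap, leaving out a library cannot turn its sign. The other 8 members changed sign somewhere, so no direction is read for them; the cause was not tested. With single libraries left out, the log2 fold change ranged from -0.081 to 0.083 for Vegfb, -0.15 to 0.15 for Vegfc, -0.50 to 0.24 for Pgf, -0.062 to 0.098 for Flt1, -0.15 to 0.29 for Kdr, -0.093 to 0.094 for Flt4, -0.043 to 0.18 for Nrp1 and -0.037 to 0.13 for Nrp2. The log2 ratio of Flt1 to Kdr ranged from -0.29 to 0.18, Kdr against endothelial markers from 0.095 to 0.51 and Flt1 against them from 0.22 to 0.28. Under the pigment epithelium covariate, Vegfb stood at -0.044, Vegfc at -0.060, Pgf at 0.43 and Nrp2 at -0.0071. Under the endothelial covariate, Vegfb stood at -0.013, Vegfc at -0.28, Pgf at 0.71, Kdr at -0.0082 and Nrp2 at -0.067. Flt4 stood at -0.047 after thinning. With the 4 libraries lacking Y-linked counts, chosen after the data were seen, Flt1 stood at -0.059 and Flt4 at -0.050.

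Over all genes, 2 passed in the main test. The count was 14 with DESeq2's Wald test, 0 with limma's voom, 6 without the low-count filter, 1 after thinning, 1 with the endothelial covariate, 0 with the sex covariate, 142 with the 4 libraries lacking Y-linked counts, and 0 to 3 with single libraries left out: 3 without control replicate 1, 1 without control replicate 2 or Tppp3 replicate 1, and 0 without control replicate 3 or Tppp3 replicates 2 or 3. With the replicate block 1 gene passed and 0 members, with Vegfa at a log2 fold change of 0.20 and Kdr at 0.090. Same-numbered libraries deviated from their group means with correlations of -0.029, 0.051 and -0.26, so the numbers were not taken to pair them.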

Other observations

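Marker lists of cells that make or answer VEGF were read from the same test, and 0 of their genes passed the threshold in edgeR, DESeq2 or voom, with 0 at an unadjusted edgeR p under 0.05. Among 11 Müller glia and astrocyte markers the median log2 fold change was 0.034, with 8 positive; the water channel gene Aqp4 stood at 0.28, the glutamine synthetase gene Glul at 0.26 and S100b at -0.45. All 9 tested pigment epithelium markers were positive, with a median of 0.88, where 50.9% of all genes tested were positive. Slc45a2, Pmel and Tyr stood at 1.26, 1.11 and 1.31. The listed markers were uneven within groups. They summed to 214.5, 46.7 and 47.7 CPM in control replicates 1, 2 and 3 and to 229.1, 59.5 and 217.1 in Tppp3 replicates 1, 2 and 3. Their signs are thus not independent of each other. Microglia markers had a median of -0.16, 8 of 10 being negative, among them Aif1 at -0.28, C1qb at -0.26 and Csf1r at -0.18. Ganglion cell markers had a median of 0.013 over 10 genes, with Pou4f1 at -0.17, Isl1 at 0.15 and Sncg at -0.089. Among 11 mural markers Vtn stood at -0.11, Tagln at -0.43 and Abcc9 at 0.20. Vtn averaged 726.3 and 670.8 CPM in control and Tppp3 AAV2. Rgs5, the next most abundant mural marker, held 69.0 to 89.6 CPM over the libraries. Which cells gave the level of Vtn was not tested. All 5 rod markers were negative, with a median of -0.085, and the 3 tested lymphatic markers were positive, with a median of 0.097; among these Prox1, at 237.7 and 254.3 CPM in control and Tppp3 AAV2, is also a gene of retinal neurons and Müller glia.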
